A study of Homo sapiens with 30 samples.

Results

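SUGP1 E554K cells were compared with SUGP1 G603N cells in the absence of drug, using 6 of the 30 RNA-seq libraries of the series, namely the 3 libraries of each allele treated with the solvent DMSO for 3 h. All cells were eHAP FNLS, haploid human cells related to HAP1, equipped with the cytosine base editor FNLS. The E554K cells had received the guide RNA SUGP1_238 and the G603N cells the guide RNA SUGP1_188, and each library came from its own monoclonal line, so that each allele is represented by 3 lines. Control cells, given only as a reference level, were 3 replicates of 1 eHAP FNLS line with a non-targeting guide RNA, also in DMSO. The same 6 SUGP1 lines were sequenced again after 3 h in 2 nM pladienolide B (PB), a compound that binds the SF3b complex of the spliceosome. The series set out to relate mutations linked to PB resistance to pre-mRNA splicing. Gene counts do not show splice site use or the edited bases, so the values below are of RNA abundance per gene.

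SUGP1 is a splicing factor of the SURP and G-patch family. It joins the spliceosome with SF3B1 while the branch point is being recognised, and its G-patch, a short glycine-rich motif, binds and activates the RNA helicase DHX15. Loss of SUGP1 from the complex leads to use of cryptic 3' splice sites, a defect also known from SF3B1 mutations in cancer. Both edited residues lie near the C terminus, at or beside the G-patch.

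The reference coding bases around the edited codons are shown because they place the 2 alleles on the gene. They were read from the GENCODE 29 transcript of SUGP1 (hg38, chromosome 19, minus strand), which has 14 exons and a coding region of 645 codons. Capitals mark the edited codon in the unedited reference, which encodes glutamate in the first sequence and glycine in the second, with 30 bases on either side.
E554K: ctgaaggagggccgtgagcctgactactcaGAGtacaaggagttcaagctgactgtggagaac
G603N: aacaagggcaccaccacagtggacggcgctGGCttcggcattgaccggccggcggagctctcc
The first codon lies in exon 12 (chr19:19277853-19277855) and the second in exon 13 (chr19:19277049-19277051), 49 residues further along the protein.

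The 6 DMSO libraries held 40633019 to 75037259 counts, with 22908 to 28333 genes at 10 counts or more and 10.6 to 15.02% of counts from the mitochondrial genome. The deepest library and the highest mitochondrial share belonged to E554K line 3. Markers of the cells overlapped between the alleles. SOX2, a pluripotency and neural stem cell factor, stood at 779, 878 and 997 counts per 1000000 (CPM) in E554K lines 1 to 3 and at 800, 1035 and 985 CPM in G603N lines 1 to 3. The summed level of the haematopoietic markers was 128 to 160 CPM in E554K and 107 to 159 CPM in G603N. It was led by GATA2, RUNX3, RUNX1 and KIT, with means over the 6 libraries of 51.3, 40.3, 18.7 and 13.3 CPM. SPI1, LYL1, ELANE, CD3E, HBG1, HBG2 and LAPTM5 did not pass the filter on low counts, and 12 of the 20 markers tested were under 1 CPM in all 6 libraries. HAP1 cells descend from a leukaemia line but grow attached and have lost most blood cell features.

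Lines of 1 allele did not group together as a set. Over the 12005 genes that averaged 4 CPM or more, the number at least 2-fold apart was counted for each of the 15 pairs of lines. E554K line 1 and G603N line 1 differed at 99 genes, and E554K line 3 and G603N line 3 at 185. Any pair of E554K lines differed at 358 to 865 genes and any pair of G603N lines at 539 to 1001. For the remaining same-numbered pair, line 2, the count was 495, and pairs of other numbers across the alleles gave 442 to 949. In DMSO, for both numbers 1 and 3, a line was thus nearer to a line of the other allele than to either line of its own allele. E554K line 2 was nearest to a line of its own allele, E554K line 1 (358 genes, against 442 to 495 for the G603N lines). G603N line 2 was nearest to E554K line 2. Cultures of the single control line differed at 11 to 121 genes.

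**Figure D1:**
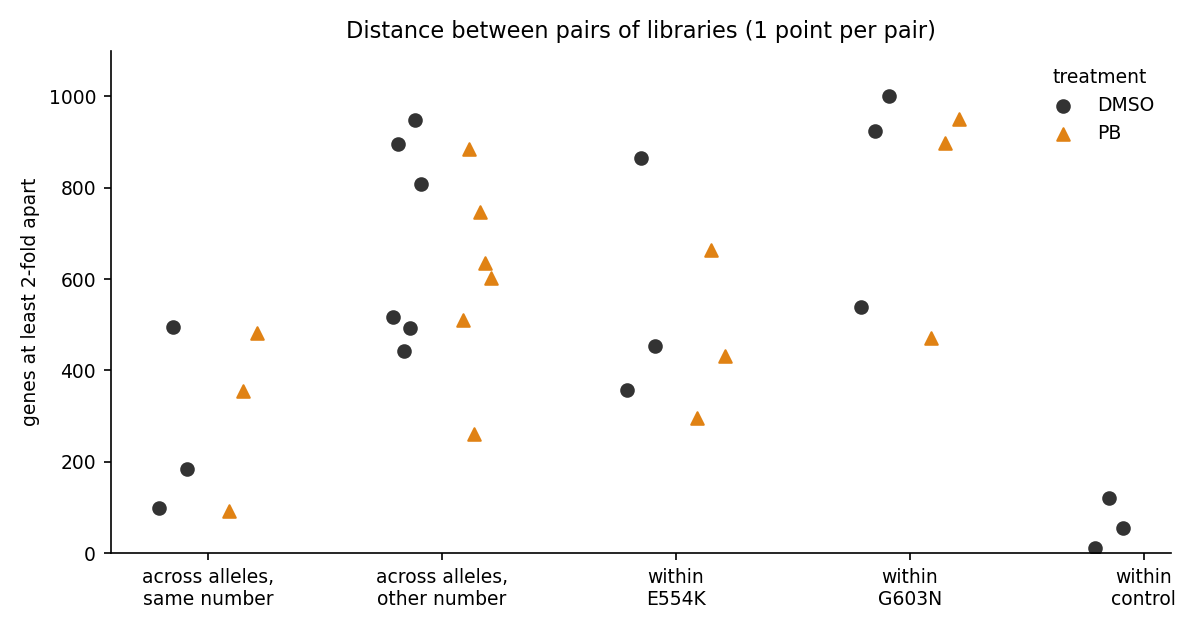
Number of genes at least 2-fold apart (y axis) for each pair of libraries, out of 12005 genes averaging 4 CPM or more, in DMSO (circles) and PB (triangles), by kind of pair (x axis). The same-numbered pair of line 1 lies at 99 genes in DMSO and 93 in PB, below every pair within an allele.

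The PB libraries of the same lines gave 93 genes for the pair of line 1, 356 for line 2 and 483 for line 3. Within alleles the PB counts were 295 to 663 for E554K and 471 to 951 for G603N, and pairs of other numbers across the alleles gave 261 to 885. E554K line 3 was nearer to E554K line 2 (431 genes) than to G603N line 3 in PB. Of the lines numbered 1 and 3, the order seen in DMSO thus recurred for both lines numbered 1 and for G603N line 3 but not for E554K line 3. The labels do not state any relation between same-numbered lines of the 2 alleles, and its part in the comparison of the alleles was not tested.

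Whole stretches of chromosomes also set single lines or pairs of lines apart. Against the mean of the control DMSO libraries, the 125 genes of chromosome 21 had a median log2 difference of 0.72 in E554K line 1 and 0.74 in G603N line 1. The other 4 lines lay between -0.39 and -0.23. Chromosome 15 (423 genes) was raised by 0.61 in E554K line 3 and 0.78 in G603N line 3, while the others lay between -0.09 and -0.01. These chromosomes separated line numbers and not alleles, and the median difference between the alleles was -0.02 on chromosome 21 and -0.08 on chromosome 15.

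**Figure D2:**
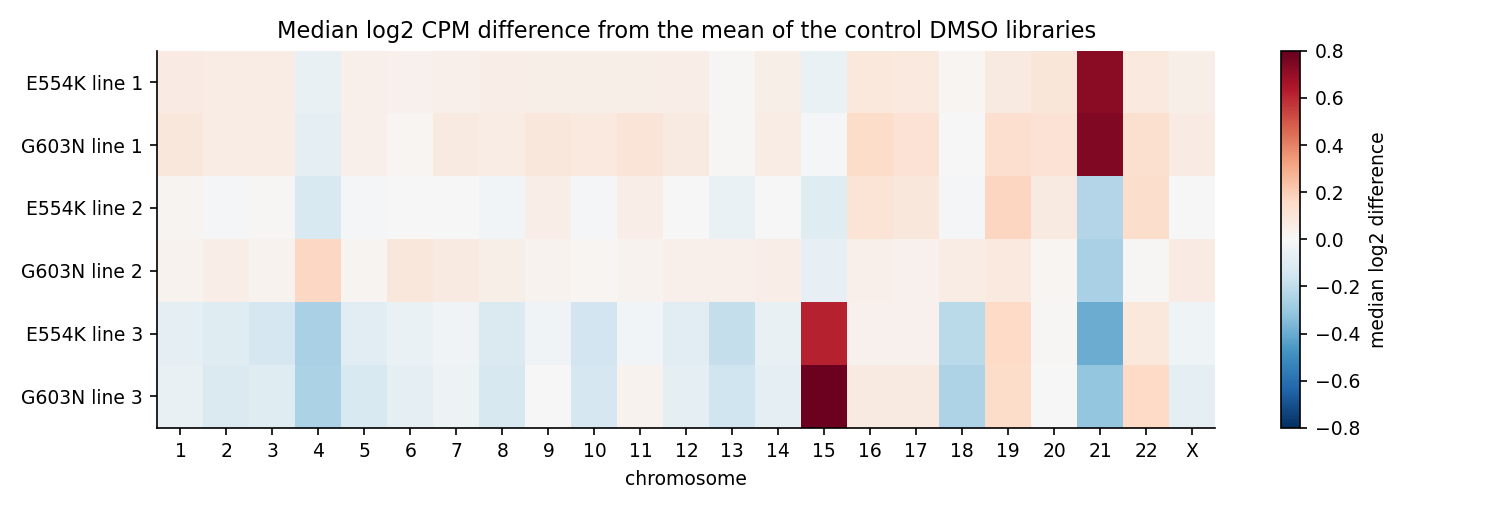
Median log2 CPM difference from the mean of the 3 control DMSO libraries for the genes of each chromosome (x axis) in each of the 6 lines (y axis), with red for higher and blue for lower. Chromosome 21 is raised in both lines numbered 1 and chromosome 15 in both lines numbered 3.

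Other stretches were raised in 1 line only. On chromosome 4, windows of 10 Mb between 0 and 50 Mb were raised in G603N line 2 by a median of 0.67 (144 genes), and the other 5 lines had medians of -0.41 to -0.25 there. Distal chromosome 11, from 120 Mb to the end, was raised by 0.83 in G603N line 3 (53 genes), and the first 10 Mb of chromosome 18 by 0.69 in E554K line 2 (27 genes). The PB libraries of these lines had medians of 0.48, 0.86 and 0.55 for the same genes. Parts of the same region of chromosome 4 passed the threshold for a lowered stretch in lines of both alleles. These were 5 to 30 Mb (-0.52) and 35 to 45 Mb (-0.50) in E554K line 3, 10 to 45 Mb (-0.62) in G603N line 3 and 15 to 25 Mb (-0.50) in E554K line 2. From 10 to 45 Mb, E554K lines 1 and 2 and G603N line 1 also lay under 0, at -0.30, -0.36 and -0.40. Single windows were also lowered on chromosomes 7 and 21 in E554K line 3 and on chromosome 19 in G603N line 3. On chromosome 4, 89 of 1189 tested genes (7.49%) had an unadjusted p under 0.05 between the alleles, 69 of them lower in E554K. The share over all genes was 4.21%, and that over genes outside every raised or lowered stretch was 4.14%. A call of a stretch required a median past 0.5 in either direction.

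Members of the gene lists in these raised stretches (averaging 4 CPM or more) were often, but not always, highest in a line that carried them. G603N line 2 was the highest of the 6 lines for 2 of 2 members on chromosome 4. E554K line 2 was so for 3 of 3 on chromosome 18, and G603N line 3 for 1 of 2 on chromosome 11. On chromosome 21, G603N line 1 was highest for 8 of 9 and E554K line 1 for 1 of 9. On chromosome 15, G603N line 3 was highest for 8 of 14 and E554K line 3 for 2 of 4 and 3 of 9 in its stretches. U2AF1, the small subunit of the factor that reads the 3' splice site, lies on chromosome 21 and stood at 246, 130 and 162 CPM in E554K and 252, 145 and 148 CPM in G603N. The libraries of both lines numbered 1 were the highest of each allele. SON, a splicing cofactor with a G-patch on the same chromosome, had 1339 and 1443 CPM in E554K line 1 and G603N line 1 and 543 to 678 CPM in the other 4 lines. BUB1B, a spindle checkpoint kinase on chromosome 15, had 313 and 364 CPM in the lines numbered 3 and 200 to 222 CPM in the others. TYMS, which makes thymidylate and lies at the start of chromosome 18, had 155 CPM in E554K line 2 against 68.6 to 91.2 CPM elsewhere. RPL9, a ribosomal protein gene on chromosome 4, had 702 CPM in G603N line 2 against 309 to 418 CPM. None of U2AF1, SON, BUB1B, TYMS and RPL9 was called between the alleles (edgeR, adjusted p = 1 for each), and they were chosen after their values were seen.

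The edited gene itself separated the alleles. SUGP1 (ENSG00000105705, chromosome 19, 19276018 to 19320844, hg38) stood at 62.8, 56.2 and 65.9 CPM in E554K lines 1 to 3 and at 90.6, 87.1 and 86.0 CPM in G603N lines 1 to 3. The groups did not overlap, and every E554K line lay below every G603N line. The means were 61.6 ± 4.97 and 87.9 ± 2.42 CPM (SD, n = 3 lines), 1.43-fold apart. The log2 fold change was -0.51 ± 0.13 (SE, 95% interval -0.77 to -0.25). As for all such values here, this SE comes from a spread shared by all 30 libraries, not from the 6 lines alone. Those libraries hold each edited line in both DMSO and PB, and control cultures of 1 line, yet were fitted as independent. Such SEs and 95% intervals may therefore be too narrow for a comparison of lines. The difference in SUGP1 was not called after adjustment over 31444 genes (edgeR, unadjusted p = 6.0e-04, adjusted p = 0.842). An exact two-sided permutation test over the 6 lines gave p = 0.10, the smallest that 3 against 3 allows.

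The control libraries held 38.7, 42.0 and 62.7 CPM of SUGP1. In PB the same lines gave 67.7, 58.2 and 61.1 CPM for E554K and 83.8, 87.4 and 86.7 CPM for G603N, a log2 fold change of -0.46 ± 0.13 (edgeR, adjusted p = 0.966). The groups again did not overlap. MAU2, a cohesin loader whose locus overlaps SUGP1 on the opposite strand, stood at 67.7 ± 6.14 CPM in E554K and 67.2 ± 4.11 CPM in G603N. Its log2 fold change was 0.01 ± 0.13, and its groups overlapped. Whether reads were counted by strand is not given in the sources used, so those of the shared bases cannot be assigned to 1 of these genes. In bulk RNA, fewer cells that express a gene and less of its RNA per cell cannot be told apart.

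**Figure D3:**
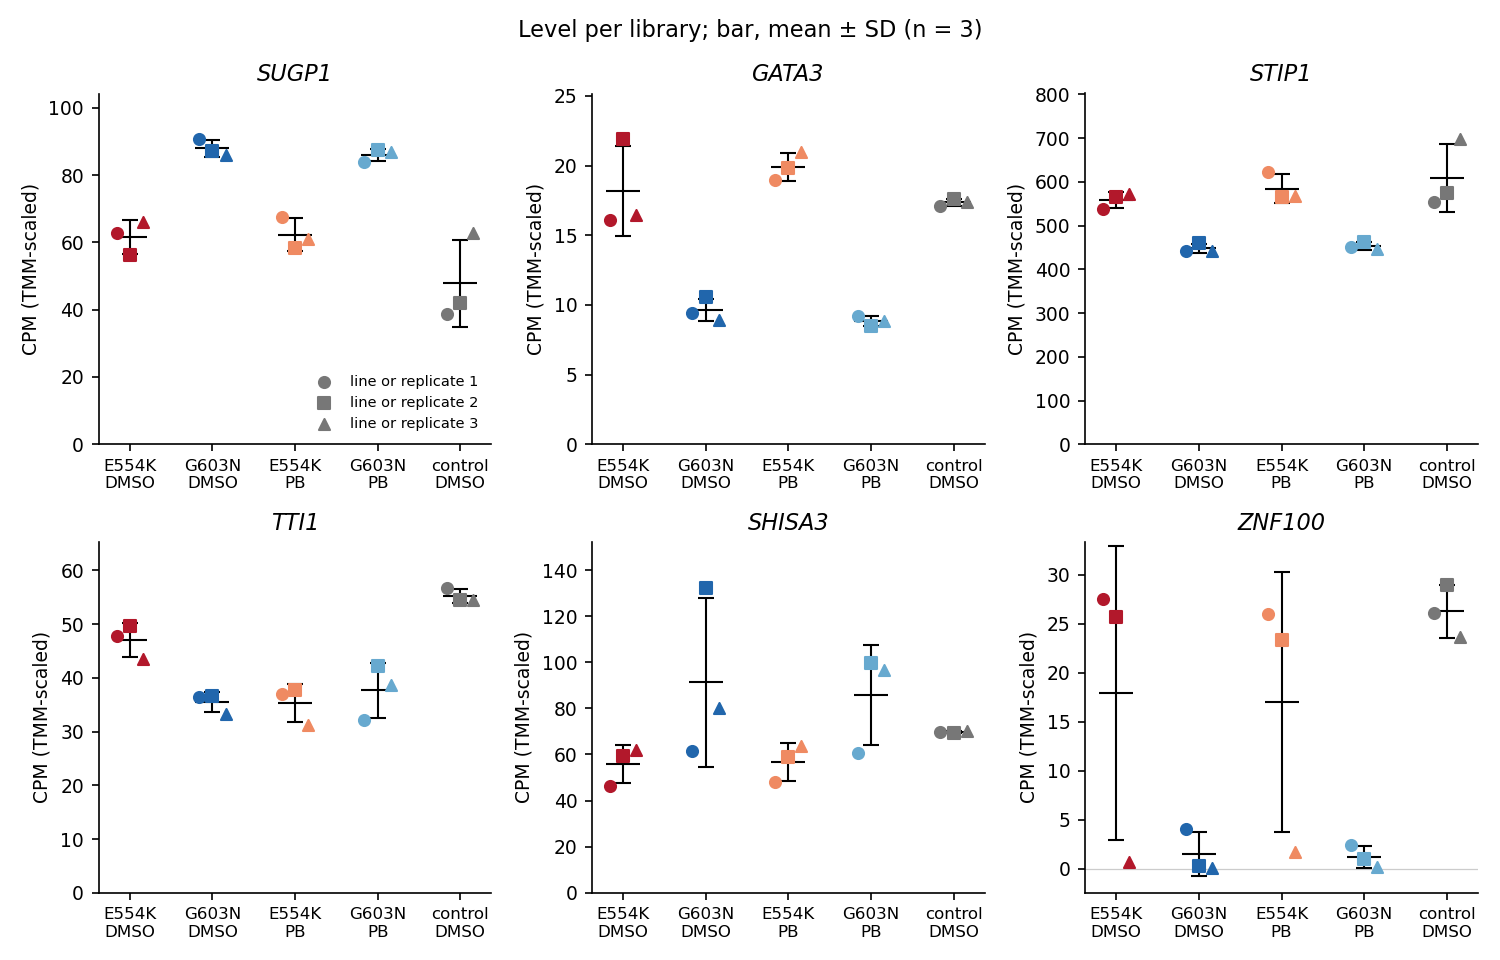
CPM (y axis) of 6 genes in each library of E554K and G603N in DMSO and in PB and of control in DMSO (x axis), with symbols for line or replicate number and bars for mean ± SD. SUGP1, GATA3 and STIP1 do not overlap between the alleles in either treatment, whereas TTI1 separates in DMSO only and ZNF100 varies between lines of E554K.

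No partner of SUGP1 was called between the alleles. DHX15, the helicase that the G-patch activates, lies in the stretch of chromosome 4 raised in G603N line 2 and, in part, lowered in E554K lines 2 and 3 and G603N line 3. It had 408, 387 and 286 CPM in E554K and 421, 621 and 329 CPM in G603N. The groups overlapped, with G603N line 2 the highest and E554K line 3 the lowest. Its log2 fold change was -0.34 ± 0.18 (edgeR, adjusted p = 1) and -0.06 ± 0.17 without G603N line 2. SF3B1, which binds SUGP1 in the spliceosome, had 425 ± 49.1 CPM in E554K and 442 ± 56.5 CPM in G603N, with a log2 fold change of -0.06 ± 0.10. SUGP2, its paralogue, had -0.08 ± 0.10, RBM17, another G-patch factor bound to SF3B1, 0.05 ± 0.12, and PHF5A, the SF3b subunit edited elsewhere in the series, 0.04 ± 0.13.

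Across the 26 genes of SUGP1, SUGP2, DHX15 and other G-patch proteins, SUGP1 alone had an unadjusted p under 0.05 (3.85% of 26, beside 4.21% of all tested genes). Among the 12005 genes averaging 4 CPM or more, as 25 of these 26 did, 216 had such a p. Of the 25 members averaging 4 CPM or more, 20 had values under 0, with a median log2 fold change of -0.09. Over all 12005 genes at that level, 56.04% had values under 0 and the median was -0.02. Among the 27 tested genes at and beside SUGP1 on chromosome 19, SUGP1 and COPE had an unadjusted p under 0.05 (7.41%). COPE, a subunit of the COPI vesicle coat, had 68.7, 76.7 and 85.6 CPM in E554K and 63.3, 62.5 and 63.7 CPM in G603N, and its groups did not overlap. Its log2 fold change of 0.29 ± 0.12 was not called (edgeR, adjusted p = 1). The median of these neighbours was 0.01.

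No gene was called between the alleles. edgeR's quasi-likelihood test with Benjamini-Hochberg adjustment called 0 of 31444 genes (0.0%) at an adjusted p under 0.05, and the lowest adjusted p was 0.335. At an unadjusted p under 0.05 there were 1323 genes (4.21%), 774 higher (2.46%) and 549 lower (1.75%) in E554K. DESeq2 called 3 genes and limma-voom with the line as a random effect called 0. Standard errors of the log2 fold changes had a median of 0.171 for genes averaging 4 CPM or more and 0.485 for all tested genes. Of the 12005 genes at that level, 369 (3.07%) had groups that did not overlap, 142 of them higher (1.18%) and 227 lower (1.89%) in E554K.

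The 3 genes called by DESeq2 were GATA3 and NIM1K, higher in E554K, and LPL, lower in E554K. NIM1K, a kinase of the AMPK-related family, and LPL, lipoprotein lipase, are named after their values were seen. NIM1K had 0.675, 1.102 and 0.673 CPM in E554K and 0.132, 0.0508 and 0.126 CPM in G603N. These groups did not overlap, but all 6 values are low. LPL had 0.0211, 0.187 and 0.185 CPM in E554K and 4.59, 4.16 and 0.105 CPM in G603N. G603N line 3 thus lay within the range of E554K.

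GATA3 was the gene of lowest p among those averaging 4 CPM or more. It encodes a zinc finger transcription factor of T cell, breast and trophoblast development and lies on chromosome 10 (8045378 to 8075203). E554K lines 1 to 3 held 16.1, 21.9 and 16.5 CPM and G603N lines 1 to 3 held 9.41, 10.5 and 8.95 CPM. Every E554K line lay above every G603N line, and the control libraries stood at 17.1, 17.6 and 17.4 CPM, within the E554K range. The means of 18.2 ± 3.23 and 9.63 ± 0.815 CPM were 1.89-fold apart (log2 fold change 0.92 ± 0.18, 95% interval 0.56 to 1.27, edgeR adjusted p = 0.335, DESeq2 adjusted p = 0.0130). GATA5, a factor of heart and gut development, was also without overlap but low, at 0.337, 1.43 and 0.158 CPM in E554K and 0.0495, 0 and 0.0210 CPM in G603N. Its log2 fold change of 4.51 ± 1.01 (edgeR, adjusted p = 0.780) was 0.51 in PB. GATA2, a factor of blood progenitors, had 47.7, 50.005 and 51.6 CPM against 51.2, 48.0 and 59.3 CPM, and GATA6 was under 1 CPM in all 6 libraries.

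By lowest unadjusted p, the other named genes with a higher value in E554K were TTI1, ZNF100, STIP1 and PDIA2. TTI1, a subunit of the TTT complex that stabilises mTOR and related kinases, is also a gene whose cryptic 3' splice site is used in SF3B1-mutant cells. It had 47.9, 49.6 and 43.5 CPM in E554K and 36.4, 36.6 and 33.3 CPM in G603N, with no overlap. The log2 fold change was 0.41 ± 0.11 (edgeR, adjusted p = 0.842), and the control libraries stood at 54.5 to 56.8 CPM. STIP1, the cochaperone that links HSP70 to HSP90, had 537, 566 and 571 CPM against 443, 460 and 441 CPM. These groups did not overlap either, at 1.25-fold apart (0.32 ± 0.10, adjusted p = 0.988), with 553.97 to 697 CPM in control. PDIA2, a protein disulfide isomerase, had 7.76, 6.01 and 5.65 CPM against 4.21, 2.18 and 4.21 CPM (0.87 ± 0.29, adjusted p = 1).

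ZNF100, a KRAB zinc finger gene, showed how far 1 allele could vary between its lines. It had 27.6, 25.7 and 0.686 CPM in E554K and 4.06, 0.254 and 0.147 CPM in G603N, and 23.6 to 28.98 CPM in control. E554K lines 1 and 2 were at the control level, while E554K line 3 lay within the range of G603N. The log2 fold change was 3.52 ± 0.93 (edgeR, adjusted p = 0.842), and 6.52 without G603N line 1. ZNF100 lies in the window of chromosome 19 (20 to 30 Mb, 22 genes) whose median was -0.58 in G603N line 3 and -0.36 to 0.19 in the other lines.

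The named genes with a lower value in E554K were SUGP1, ZNF3, SHISA3, MDFIC and ZNF268. ZNF3, a zinc finger gene, had 54.1, 57.8 and 66.7 CPM in E554K and 87.2, 92.7 and 76.2 CPM in G603N, without overlap, and 46.5 to 50.4 CPM in control. Its log2 fold change was -0.52 ± 0.14 (edgeR, adjusted p = 0.842). MDFIC, a regulator that binds MyoD-family and other transcription factors, had 4.03, 3.51 and 4.62 CPM against 9.31, 17.5 and 6.86 CPM. Here too the groups did not overlap, at -1.46 ± 0.41 (adjusted p = 0.937), with the control at 9.20 to 9.49 CPM. It was -0.90 without line 2 of both alleles.

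SHISA3, an inhibitor of WNT and FGF receptor maturation, lies in the stretch of chromosome 4 raised in G603N line 2, in a part lowered in both lines numbered 3. It had 46.4, 59.2 and 61.9 CPM in E554K and 61.7, 132 and 80.1 CPM in G603N. The groups overlapped, with G603N line 2 far above the rest. The log2 fold change of -0.71 ± 0.19 (edgeR, adjusted p = 0.842) was -0.35 without G603N line 2. ZNF268, a KRAB zinc finger gene, had 36.5, 29.1 and 31.5 CPM against 51.1, 44.9 and 36.2 CPM, with 1 value of each group in the range of the other (-0.44 ± 0.13, adjusted p = 0.963).

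Genes of the splicing machinery had medians near 0. None of the 27 tested genes of SF3b, SF3a, the U2 snRNP and branch point recognition had an unadjusted p under 0.05 (beside 4.21% of all tested genes). Among the 12005 genes averaging 4 CPM or more, as all 27 did, 216 had such a p. The median log2 fold change of the 27 was -0.02. Their values ran from -0.13 for DDX46, the helicase that remodels U2, to 0.13 for SMNDC1, and no 95% interval reached past -0.49 or 0.52. No gene had such a p among 38 of the other core spliceosome, 28 SR proteins and their kinases and 28 hnRNP proteins, with medians of -0.01, -0.05 and -0.01. Their 95% intervals were wider, reaching from -0.60 to 0.76, from -0.85 to 0.58 and from -0.37 to 0.62. Of the SR proteins and kinases, 21 of 28 had values under 0, beside 56.04% of all genes averaging 4 CPM or more. Among 30 nonsense-mediated decay factors and snoRNA host genes whose transcripts that pathway degrades, the count was also 0, with values of -0.21 for SMG6 to 0.28 for SNHG7.

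Genes with cryptic 3' splice sites used in SF3B1-mutant or SUGP1-depleted cells had a median of -0.00062. TTI1 was the only 1 of the 21 with an unadjusted p under 0.05 (4.76%, beside 4.21% of all tested genes). Among the 12005 genes averaging 4 CPM or more, as all 21 did, 216 had such a p. In 4 of the 21 (19.05%, beside 3.07% of all genes at that level) the groups did not overlap, with TTI1, DPH5 and ZDHHC16 higher and BRD9 lower in E554K. At that level the share was 12% of the G-patch list and 10% of the neighbours of SUGP1, both counting SUGP1 itself. It was 7.14% of SR proteins and kinases, 3.57% of hnRNP proteins, and 0% of the SF3b and U2, other core spliceosome and decay lists. MAP3K7, a kinase of innate immune signalling, had 74.4, 64.4 and 53.1 CPM in E554K and 68.1, 70.8 and 53.1 CPM in G603N. The groups overlapped, at a log2 fold change of -0.00062 ± 0.12. BRD9, a chromatin remodelling subunit, had 66.5, 65.6 and 66.9 CPM against 78.1, 67.02 and 69.3 CPM, apart by less than 1 CPM at the nearest (-0.11 ± 0.14). The highest value, 0.44 ± 0.37, was that of ENOSF1, which lies in the stretch of chromosome 18 raised in E554K line 2 and had 126 CPM there against 52.9 to 65.0 CPM in the other lines.

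**Figure D4:**
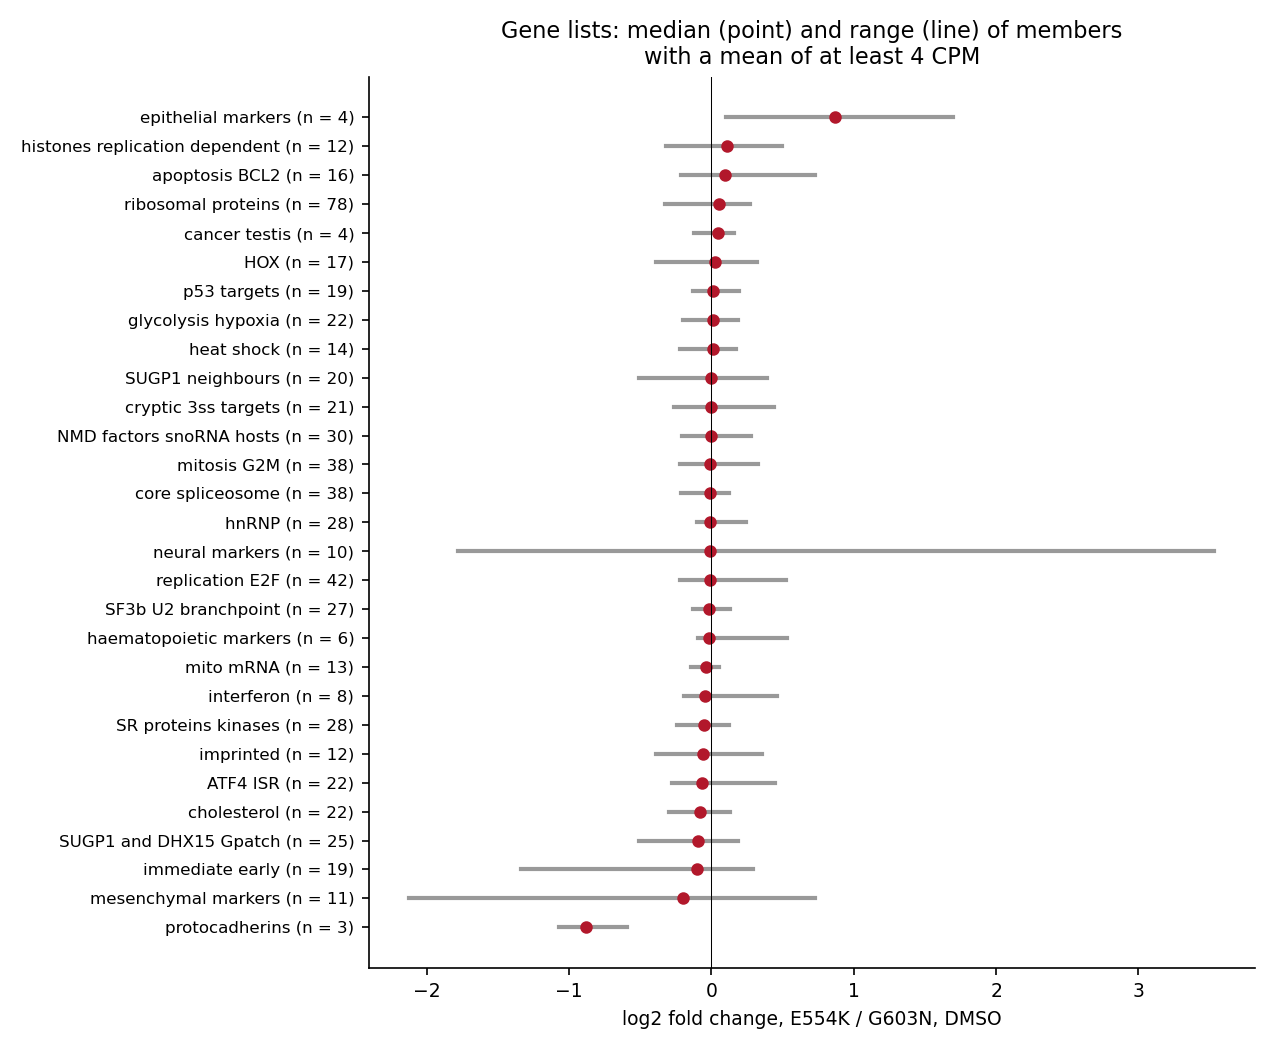
Median (point) and range (line) of the log2 fold change of E554K over G603N in DMSO (x axis) for the members of each gene list averaging 4 CPM or more (y axis, number in brackets). Splicing lists sit near 0, and the widest ranges are those of neural and mesenchymal markers.

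An unadjusted p under 0.05 was found in 4.21% of all tested genes and in 216 of the 12005 genes averaging 4 CPM or more. Of the stress and growth lists, several held no gene with such a p. These were 24 p53 targets (median 0.02), 24 genes of the integrated stress response (-0.07), 14 heat shock genes (0.0073), 40 mitosis genes (-0.0091), 42 replication genes (-0.01), 24 cholesterol synthesis genes (-0.08), 26 interferon response genes (-0.09) and 78 ribosomal protein genes (0.06). Some of them leaned to 1 side: 67 of the 78 ribosomal protein genes had values above 0, beside 43.96% of the 12005 genes averaging 4 CPM or more. Of the 22 cholesterol genes at that level, 18 had values under 0, beside 56.04%. In PB, the same lines gave medians of 0.20 and -0.15 for the 2 lists. List medians varied between lines of an allele with an SD of 0.13 and 0.12 in DMSO, more than the DMSO medians of 0.06 and -0.08 between the alleles. A single gene had such a p among 19 apoptosis genes (BIRC3, lower in E554K, 5.26%) and 1 among 39 histone genes (H4C9, higher, 2.56%). In the list of 26 immediate early genes, 3 had such a p (11.5%). FOSB, a subunit of AP-1, had 2.26, 1.64 and 2.34 CPM in E554K and 1.20, 1.07 and 1.26 CPM in G603N, with no overlap. CCN2, a YAP target, had 9.82, 14.8 and 5.06 CPM against 20.7, 47.1 and 7.003 CPM, and DUSP6, an ERK phosphatase, stayed under 1 CPM in all 6 libraries. No member of any list was called (edgeR, lowest adjusted p 0.842).

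Clustered protocadherins, cell surface adhesion proteins that neurons express in varying combinations, had the largest share of the 29 lists. Of 53 genes on chromosome 5, 44 were tested, and 12 of these (27.3%, beside 4.21% of all genes) had an unadjusted p under 0.05, 11 lower and 1 higher in E554K. Their median log2 fold change was -0.78 in DMSO and -0.67 in PB. Levels were low: 19 members stayed under 1 CPM in all 6 libraries and 3 reached a mean of 4 CPM. The summed level was 28.4 to 51.5 CPM in E554K, 55.2 to 75.9 CPM in G603N and 42.4 to 43.7 CPM in control, so the alleles did not overlap.

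The member of highest level was PCDHGA10, at 8.12, 5.90 and 5.20 CPM in E554K and 9.97, 8.83 and 10.1 CPM in G603N. These groups did not overlap (log2 fold change -0.59 ± 0.23, edgeR adjusted p = 1). PCDHB12, the member of lowest p, had 1.05, 0.187 and 1.27 CPM against 1.73, 2.69 and 2.91 CPM, again without overlap (-1.53 ± 0.51, adjusted p = 1). PCDHGC3 had 4.83, 4.41 and 2.53 CPM against 6.27, 4.85 and 13.6 CPM, with G603N line 3 far above the rest. PCDHB7, the member higher in E554K, stayed under 1 CPM in all 6 libraries. Genes of the gamma cluster share their last exons and overlap each other, so their counts are not independent and could be split between members.

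Several marker genes of other cell types stood high in single lines. KRT8, an epithelial keratin, stood at 68.8, 3.56 and 2.53 CPM in E554K and 19.03, 0.533 and 3.31 CPM in G603N. Lines numbered 1 were the highest of both alleles, at a log2 fold change of 1.70 ± 1.29 (edgeR, adjusted p = 1). The epithelial list as a whole had a median of 0.64 over 16 tested members in DMSO and 0.08 in PB, with summed levels of 188 to 424 CPM in E554K and 148 to 314 CPM in G603N that overlapped. ESRP1, an epithelial splicing regulator, was its 1 member with an unadjusted p under 0.05 (6.25%), at 14.1, 7.24 and 4.07 CPM against 2.162, 1.90 and 4.91 CPM.

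MAP2, a neuronal microtubule protein, had 51.1 CPM in G603N line 2 and 1.39 to 11.2 CPM in the other lines, and the control libraries stood between them at 30.95 to 32.99 CPM. PDGFRA, a mesenchymal growth factor receptor, had 25.4 CPM in G603N line 1 and 2.13 to 3.02 CPM elsewhere. NEFL, a neurofilament, had 47.6 CPM in E554K line 3 and at most 3.02 CPM in the other 5 lines. Each of these 3 genes was therefore marked by a single line, in PB as in DMSO. Of the 11 mesenchymal markers averaging 4 CPM or more, 10 had values under 0, beside 56.04% of all genes at that level. The median over all 24 tested was -0.15 in DMSO and -0.11 in PB, and the summed levels of 690.1 to 935 CPM in E554K and 709.5 to 1116 CPM in G603N overlapped.

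Genes that stood at least 4-fold above the next of the 6 lines were counted for each line. There were 13 in G603N line 2, 3 in E554K line 1, 2 each in E554K line 3, G603N line 1 and G603N line 3, and 0 in E554K line 2. In PB, 12 of the 13 were again at least 2-fold above the others, as were all of those of the other 4 lines. SLITRK5, a synaptic adhesion protein, had 14.2 CPM in G603N line 2 and 0.457 to 1.14 CPM elsewhere. PGR, the progesterone receptor, had 9.14 CPM there and 0.224 to 0.590 CPM elsewhere. MAGEA6 and MAGEA3, near-identical cancer-testis antigens between which reads could be split, had 13.5 and 7.40 CPM in G603N line 3.

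More genes marked both lines numbered 1 than any E554K line. Of these, 10 were at least 4-fold above all other lines in both E554K line 1 and G603N line 1, and all 10 were again at least 2-fold above in PB. CADM1, a cell adhesion molecule, had 21.5 and 33.4 CPM in those lines and 0.294 to 1.78 CPM in the other 4, with 3.46 to 4.53 CPM in control. ALPG, a germ cell alkaline phosphatase, had 11.2 and 8.58 CPM against 0.119 to 0.711 CPM. DTNA, a dystrophin-associated protein, was the 1 gene that marked both lines numbered 2, at 19.3 and 16.8 CPM against 0.717 to 3.00 CPM. Both lines numbered 3 were marked by 1 gene too, a processed pseudogene, which was not again at least 2-fold above in PB. ESRG, a transcript of pluripotent cells and another of the 10, had 85.6 CPM in E554K line 1 and 8.40 CPM in G603N line 1 against 0.229 to 0.739 CPM. All these genes were chosen for a high level in 1 line of each allele, and their log2 fold changes between the alleles were -0.53 ± 1.41 for CADM1, 0.28 ± 1.41 for ALPG, 0.06 ± 1.39 for DTNA and 3.26 ± 1.87 for ESRG (edgeR, adjusted p = 1 for each).

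The comparison was repeated in the PB libraries of the same 6 lines, which are other libraries but not other lines. GATA3 was the 1 gene called of 31444 (0.00318%). It held 18.96, 19.9 and 20.97 CPM in E554K and 9.23, 8.52 and 8.88 CPM in G603N, without overlap. It was higher in E554K with a log2 fold change of 1.17 ± 0.18 (edgeR, adjusted p = 0.0178). The call was lost when any 1 of the 6 PB libraries was left out (adjusted p = 0.0715 to 0.328) and when only these 6 libraries were fitted (adjusted p = 1.0), while the log2 fold change stayed at 1.13 to 1.20.

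Differences between the alleles in DMSO recurred in PB for part of the genes. Of 216 genes averaging 4 CPM or more and an unadjusted p under 0.05 in DMSO, 190 had the same sign in PB and 82 also had such a p there, all 82 with the same sign. Over all tested genes, including those under 4 CPM, 4.86% had such a p in PB. The PB share among the 12005 genes averaging 4 CPM or more was not counted, nor was their share with the same sign. Over these 12005 genes the allele differences in DMSO and in PB had a Pearson r of 0.63. In 63 genes (0.525% of 12005) the groups did not overlap in the same direction in both treatments, 21 higher (0.175%) and 42 lower (0.35%) in E554K. SUGP1, GATA3, STIP1 and MDFIC were among them. STIP1 had 622, 565 and 567 CPM against 450, 463 and 447 CPM in PB, and MDFIC 3.42, 5.43 and 5.64 CPM against 7.55, 14.1 and 10.5 CPM.

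**Figure D5:**
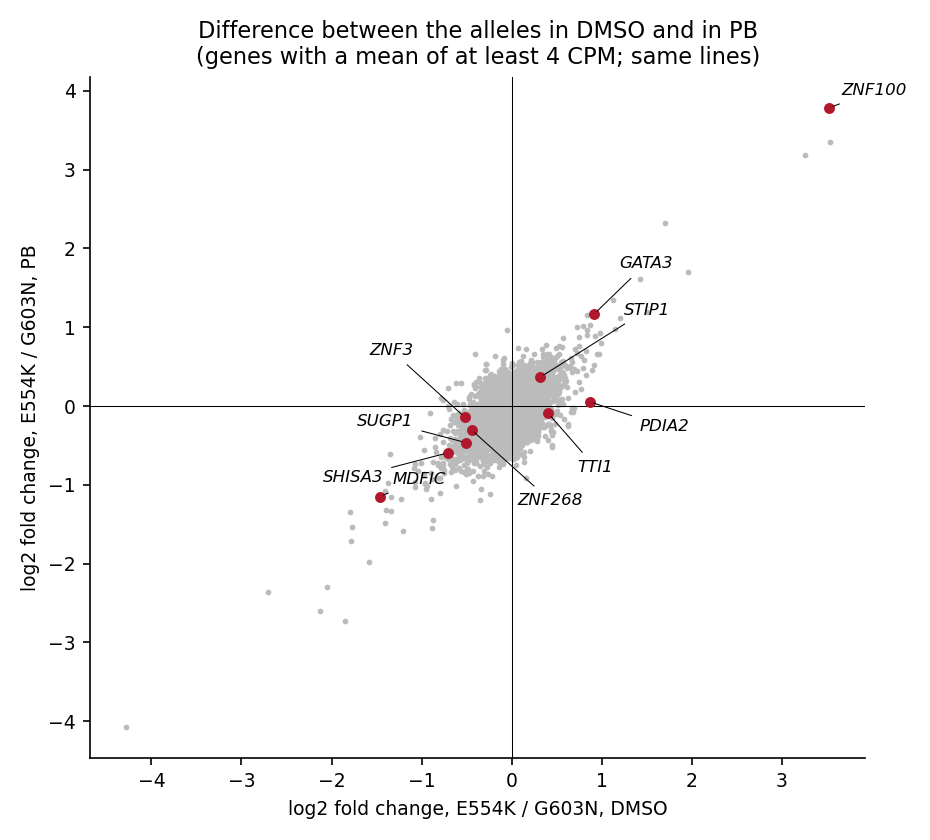
Log2 fold change of E554K over G603N in DMSO (x axis) and in PB (y axis) for 12005 genes averaging 4 CPM or more, with 10 named genes in red. The 2 axes come from other libraries of the same 6 lines. GATA3 and STIP1 lie above 0 on both axes, and TTI1 lies above 0 in DMSO only.

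TTI1, ZNF3 and PDIA2, which were named for a low p in DMSO, behaved otherwise. In PB, TTI1 had 36.9, 37.7 and 31.3 CPM in E554K and 32.1, 42.2 and 38.7 CPM in G603N, so its groups overlapped and its log2 fold change was -0.09 ± 0.11. ZNF3 had -0.14 ± 0.13 and PDIA2 0.05 ± 0.29 in PB. Tested directly, no gene was called for a difference between the alleles that itself differed between PB and DMSO (edgeR, 0 of 31444, 0.0%). At an unadjusted p under 0.05 (edgeR) there were 1041 genes (3.31%), and DESeq2 called 0. This test did not match the PB and DMSO libraries of the same line, so differences between lines add to its error. Its 0 calls therefore cannot show that the allele difference was alike in both treatments. For TTI1 this test gave a difference of -0.50 ± 0.15 (edgeR, unadjusted p = 0.0025, adjusted p = 1.0), and for SUGP1 0.05 ± 0.19, with a 95% interval of -0.32 to 0.41. TTI1 was named for its DMSO values, which enter this test, so its unadjusted p cannot show that the allele difference depended on treatment.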

How the data were processed

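RNA-seq libraries were made from polyadenylated RNA with a CORALL total RNA kit and sequenced as paired 150-base reads, per the labels' protocols. Per the submitters' processing notes, reads were handled with UMI-tools, STAR and SAMtools 1.10 on hg38. How reads were counted over genes, by which annotation and with which strand setting, is not given in the sources used. The authors deposited estimated counts per gene, not normalized, of which 65.5% of values above 0 are not whole. Of 61487 genes, 61369 were paired with symbols and 58312 with a GENCODE 29 (hg38) position.

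Counts were rounded and fitted with edgeR 4.0.16 (R 4.3.3): filterByExpr over 10 groups, TMM scaling, 1 quasi-likelihood model over all 30 libraries, and Benjamini-Hochberg adjustment over 31444 genes with a threshold of 0.05. Log2 fold changes are E554K minus G603N, with approximate standard errors taken from the F value. CPM are counts per 1000000 of the TMM-scaled library, and log2 CPM used a prior count of 2. Alternatives were RLE scaling, no filter, DESeq2 1.42.0, limma 3.58.1, fewer libraries, a replicate block and leaving out single lines. Windows of 10 Mb in steps of 5 Mb needed at least 10 genes averaging 4 CPM or more. The script was tested on simulated data.

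The rule for named genes took SUGP1 and overlapping genes, every called gene and, where fewer than 5 were called in a direction, the 5 of lowest unadjusted p averaging 4 CPM or more. All other genes with values in the text were chosen after their values were seen. The comparison, gene lists and rule were chosen with earlier results of these data known. Replicates are separate monoclonal lines, per the labels. Replicate numbers of the 2 alleles were not taken as pairs.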

Additional observations from a re-analysis of the deposited data

How the results depend on the processing

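The number of genes called between the alleles in DMSO was 0 with RLE scaling, no filter, limma-voom, the 6 or 15 DMSO libraries alone, and a replicate block (0 in all 30 libraries and 0 in the 6 alone). It was 3 with DESeq2 (2 higher, 1 lower), and 0 to 2 when single lines were left out. The 2 calls, KRT18P59 (higher) and LPL (lower), came without G603N line 3. Without line 3 of both alleles 3 genes were called: KRT18P59 (higher), ENSG00000257509 and OTULIN-DT (lower). The block in the 6 libraries alone and the settings that follow were chosen after seeing the data. Without line 2 of both alleles, 1 gene was called (CHUK-DT, higher). With lines 1 and 3 alone and a replicate block there were 6 calls in DMSO (ESRG and ZNF100 higher; VGLL3, MAGEA6, MAGEA3 and NELL2 lower) and 4 in PB (ZNF100 and ESRG higher; VGLL3 and MAGEA6 lower). These blocked fits rest on 4 lines. Deviations of same-numbered lines from their allele means correlated at 0.62, 0.09 and 0.55 over genes in DMSO, a hint from the data and not the design, and every line correlated best with its own number. The cause of each change in calls was not tested.

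In PB, 1 gene was called with RLE scaling and with the replicate block, 3 without the filter (GATA3, LPL and ZNF100), 4 with DESeq2 (GATA3, LPL, PCDHGB3 and ENSG00000273691), 0 with the 6 PB libraries alone and 0 in every fit that left out 1 line. The test of the difference between treatments called 0 genes in all 5 alternatives, none of which matched the libraries of a line. Changing the threshold for a raised or lowered window from 0.5 to 0.3 or 0.7 gave 175 or 28 windows. MAU2, near 0, took values of -0.0011 with the 15 DMSO libraries, -0.0094 with limma-voom, -0.10 without line 2 of both alleles, -0.11 with lines 1 and 3 and a block, and -0.075 to 0.076 when single lines were left out. SUGP1 kept its direction in all 17 alternatives, from -0.61 to -0.46, and GATA3 in DMSO from 0.74 to 0.98. Fits that share 1 spread over 30 libraries gave 1323 genes at an unadjusted p under 0.05 and the 6 libraries alone 231. With 3 lines per allele and a median standard error of 0.171, small differences could not be resolved.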
